A study of Mus musculus with 4 samples.

Results

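Cell cycle and proliferation genes were described across 4 RNA sequencing libraries of naive microglia, which are brain-resident macrophages. The genes were taken by symbol from a fixed list of 42, and all 42 were among the 56832 gene rows of the count files. All 4 libraries came from 1 group, microglia of female C57BL/6 mice with no intervention, which were litter mates that received no transplant. After brain dissociation, cells were sorted on CD11b and on low or intermediate CD45, and total RNA was amplified with a low-input kit. The study also profiled graft-derived brain myeloid cells, which were not analysed here, so no contrast between groups was made. Whether the libraries are of different animals is not stated, so the spread between them, and any p-value, may be technical.

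A cell enters division when D-type cyclins with CDK4 or CDK6 phosphorylate the retinoblastoma protein, which releases E2F factors and the genes of DNA replication. Mitotic genes are switched on later, in G2, through promoters that often hold CCAAT boxes and a cell cycle homology region, and their transcripts are scarce in resting cells. Adult microglia renew themselves slowly in the healthy brain, so few of them are dividing at a given time.

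Promoter windows of 5 genes are shown because cell cycle promoters are known for these elements. Cdc20 and Ccnb2 stand for mitotic genes that were near 0 in some libraries, Mcm6 and Mcm3 for helicase genes of very different levels, and Cdk4 for a G1 gene present throughout. Each window runs from 250 bases before to 50 bases after the start of the gene in RefSeq, build GRCm38.p6, written 5′ to 3′ on the gene's strand. The windows lie at chr4:118437294-118437593 (minus strand, Cdc20), chr9:70421505-70421804 (minus, Ccnb2), chr1:128359656-128359955 (minus, Mcm6), chr1:20820263-20820562 (minus, Mcm3) and chr10:127063285-127063584 (plus, Cdk4). Capitals mark CCAAT, the cell cycle homology letters TTTGAA, and the E2F letters TTTGGCGC, TTTCGCGC or TTTCCCGC, on either strand.
Cdc20: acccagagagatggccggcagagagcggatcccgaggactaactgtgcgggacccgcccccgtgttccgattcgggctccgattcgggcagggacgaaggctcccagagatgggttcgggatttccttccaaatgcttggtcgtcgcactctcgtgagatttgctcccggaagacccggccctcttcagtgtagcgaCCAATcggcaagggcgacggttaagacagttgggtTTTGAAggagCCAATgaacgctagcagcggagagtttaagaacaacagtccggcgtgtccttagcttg
Ccnb2: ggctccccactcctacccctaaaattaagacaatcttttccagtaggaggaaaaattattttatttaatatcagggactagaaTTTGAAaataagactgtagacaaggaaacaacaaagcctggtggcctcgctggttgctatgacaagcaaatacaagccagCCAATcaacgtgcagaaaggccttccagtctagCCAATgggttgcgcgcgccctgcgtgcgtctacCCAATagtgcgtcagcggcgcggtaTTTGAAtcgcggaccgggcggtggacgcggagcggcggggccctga
Mcm6: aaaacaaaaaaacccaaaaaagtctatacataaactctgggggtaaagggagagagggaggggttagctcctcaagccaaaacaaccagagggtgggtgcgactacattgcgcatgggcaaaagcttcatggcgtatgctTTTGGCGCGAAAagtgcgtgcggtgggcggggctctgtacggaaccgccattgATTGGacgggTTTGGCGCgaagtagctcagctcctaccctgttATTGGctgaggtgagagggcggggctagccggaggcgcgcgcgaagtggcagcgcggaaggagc
Mcm3: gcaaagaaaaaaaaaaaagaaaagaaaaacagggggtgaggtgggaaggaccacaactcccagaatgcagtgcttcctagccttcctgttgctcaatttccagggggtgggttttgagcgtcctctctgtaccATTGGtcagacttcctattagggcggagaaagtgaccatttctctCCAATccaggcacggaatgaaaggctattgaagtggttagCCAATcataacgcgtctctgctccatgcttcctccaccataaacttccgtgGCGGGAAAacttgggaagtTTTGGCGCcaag
Cdk4: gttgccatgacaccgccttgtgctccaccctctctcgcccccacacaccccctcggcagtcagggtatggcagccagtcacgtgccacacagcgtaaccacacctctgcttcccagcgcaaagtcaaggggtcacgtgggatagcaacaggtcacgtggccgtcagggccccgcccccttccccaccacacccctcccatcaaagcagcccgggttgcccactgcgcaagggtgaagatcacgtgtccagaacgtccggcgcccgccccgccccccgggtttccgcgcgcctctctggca

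The Cdc20 window held 2 CCAAT matches and 1 TTTGAA match, and that of Ccnb2 held 3 and 2. The Mcm6 window held 2 CCAAT and 3 E2F matches, of which a pair overlap on opposite strands, and the Mcm3 window held 3 CCAAT and 2 E2F matches. The Cdk4 window held none of these letters. Windows were found for 32 of the 42 genes. CCAAT was in 13 of the 14 mitotic genes with a window (92.9%), in 6 of 6 helicase and clamp genes, and in 78.1% of all 32 genes, against 37.4% of all 32851 windows of the same length. TTTGAA was in 10 of the 14 mitotic genes (71.4%) and in 1 of the 6 helicase and clamp genes, against 17.9% of all windows. The E2F letters were in 4 of 6 helicase and clamp genes (66.7%), Mcm3, Mcm5, Mcm6 and Mcm7, against 1.84% of all windows. A member with more than 1 window was scored by the window with the most matches, while all windows were counted singly, which can favour the members. A match describes letters only and shows neither a bound site nor the reason for a level.

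The libraries held 20360121 to 23292655 counts assigned to genes. CPM is a gene's counts scaled by its library's total assigned to genes. By counting error alone, a count of 0 allows an expected count of at most 3, or 0.129 to 0.147 CPM. Replicates 1 to 4 held 14850, 18978, 18431 and 13944 genes with a count. The sum of 18 immediate early genes was 5378, 58890, 51560 and 5611 CPM, so replicates 2 and 3 stood apart from replicates 1 and 4 in both measures. All 12 microglial markers of the list were at 10 CPM or more in every library, with summed levels of 37740 to 67310 CPM.

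Many of the cell cycle genes were near 0 in some libraries. Of the 42 genes, 16 had over 3 counts in every library and 26 had 3 counts or fewer in at least 1 library. Genes at 3 counts or fewer numbered 12, 3, 6 and 24 in replicates 1 to 4, so replicate 4 lacked more than any other. Without replicate 4 the 26 became 16, and with replicates 2 and 3 alone it was 8. At 1 CPM or more in every library stood 14 genes, 21 without replicate 4 and 28 in replicates 2 and 3 alone. None of the 42 reached 100 CPM in every library, and Ccne1 had 0 counts in all 4.

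**Figure D1:**
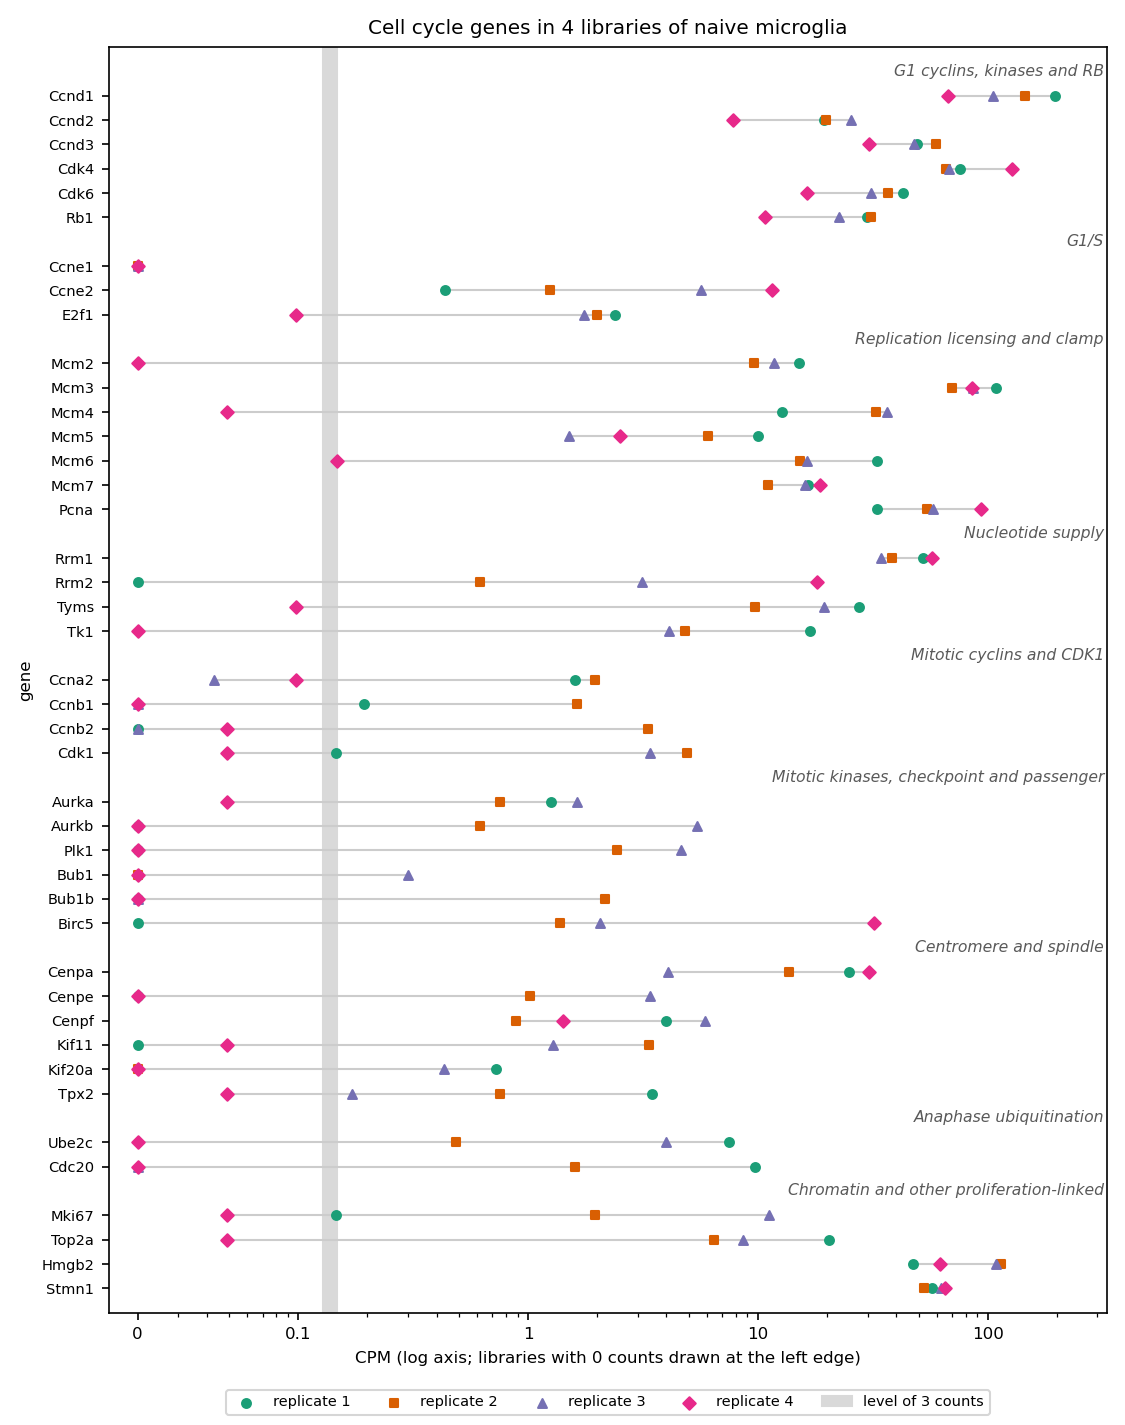
Level of each of the 42 genes in the 4 libraries, in CPM on a log axis, grouped by role, with libraries at 0 counts drawn at the left edge and the level of 3 counts shaded. The G1 genes cluster between 7.76 and 196 CPM, while most mitotic genes run from the left edge to a few CPM.

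Between genes, levels were compared per kb of annotated exon. The highest were Stmn1 at 30.9 ± 2.81, Hmgb2 at 27.7 ± 11.1, Ccnd1 at 27.2 ± 11.7, Cdk4 at 26.0 ± 9.05, Pcna at 24.8 ± 10.4 and Mcm3 at 23.3 ± 4.24 CPM per kb (SD, n = 4). The mean ± SD of each of these 6 overlapped that of the next among them. The next gene, Mcm4, was at 5.68 ± 4.75 CPM per kb. Per kb of coding sequence, Ccnd1, Hmgb2, Stmn1, Cdk4 and Pcna remained the first 5, Ccnd3 came sixth and Mcm3 seventh.

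Of the 9 role groups, the G1 group alone had every gene at 1 CPM or more in every library. Its 6 genes were the D cyclins Ccnd1, Ccnd2 and Ccnd3, their kinases Cdk4 and Cdk6, and the retinoblastoma gene Rb1. Their median level was 4.62 ± 1.44 CPM per kb (SD, n = 4), against 0.179 ± 0.189 CPM per kb for the 18 mitotic genes. The G1 median exceeded the mitotic median in each library, and no test was made of it because the members were chosen with earlier results known.

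Cyclin D1 was the main D cyclin transcript. Ccnd1 stood at 196, 145, 105 and 66.9 CPM in replicates 1 to 4, Ccnd3 at 49.1, 59.2, 48.0 and 30.4 CPM, and Ccnd2 at 19.5, 19.7, 25.5 and 7.76 CPM. All 3 were lowest in replicate 4. Per kb of exon, the log2 ratio of Ccnd3 over Ccnd1 was -2.29 ± 0.41, and that of Ccnd3 over Ccnd2 was 1.55 ± 0.44 (SD, n = 4). The order Ccnd1, Ccnd3, Ccnd2 held in 4 of 4 libraries, also without the length correction. Without it, Ccnd3 over Ccnd1 was -1.39, and the annotated exons span 8775 bases in Ccnd3 and 4709 bases in Ccnd1.

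Cdk4 stood at 75.9, 66.0, 67.6 and 128 CPM in replicates 1 to 4 and Cdk6 at 42.6, 36.9, 31.1 and 16.4 CPM. The kinases thus took opposite extremes in replicate 4, where Cdk4 was highest and Cdk6 lowest. Cdk4 over Cdk6 was 3.55 ± 1.02 on the log2 scale per kb (SD, n = 4), but 1.44 without the length correction, since the annotated exons of Cdk6 span 13989 bases. Of the exon bases of Cdk4, 19.7% overlap Tspan31 on the opposite strand, and of those of Ccnd1, 23.4% overlap the gene annotated as LTO1. The strand setting of the counting is not given in the sources used here. How reads in such shared bases were assigned or left out is therefore not known.

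Rb1, the brake that D cyclin kinases release, stood at 29.9, 31.2, 22.6 and 10.7 CPM, again lowest in replicate 4. Its relative Rbl2, a pocket protein of resting cells, stood at 51.5, 55.4, 41.0 and 70.7 CPM, highest there. Rbl2 over Rb1 was 0.45, 0.50, 0.53 and 2.39 on the log2 scale per kb in replicates 1 to 4, so its mean of 0.97 ± 0.95 (SD, n = 4) was 0.49 without replicate 4. Of the exon bases of Rb1, 14.9% overlap Lpar6 and Rcbtb2 on the opposite strand.

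The genes of the G1 to S step were scarce. The transcription factor E2f1 had 49, 45, 41 and 2 counts in replicates 1 to 4. Cyclin E2, which activates CDK2 at the start of S phase, went the other way, with 9, 28, 132 and 234 counts of Ccne2. Of the exon bases of Ccne2, 17.4% overlap Ints8 on the opposite strand. Cyclin E1 was not detected, which by counting error alone caps its level at 0.129 to 0.147 CPM in a library. Reads of an amplified library need not be separate molecules, so this cap need not hold.

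The replication genes were split. Mcm2 to Mcm7 encode the 6 subunits of the replicative helicase, which are present in equal number in the complex, yet their transcripts were far from equal. Mcm3 stood at 108, 69.6, 86.3 and 85.5 CPM in replicates 1 to 4, and Mcm7 at 16.5, 11.1, 16.1 and 18.7 CPM, both evenly. Mcm4, in contrast, gave 261, 734, 845 and 1 counts, Mcm6 gave 680, 343, 379 and 3 counts, and Mcm2 gave 311, 216, 273 and 0 counts. Those 3 were clear in replicates 1 to 3 and at or below 3 counts in replicate 4. Mcm5 gave 207, 137, 35 and 51 counts, and in replicate 4 it was above those 3 per kb of exon.

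Per kb of exon, Mcm3 took 60.3%, 51.2%, 54.4% and 82.3% of the summed helicase level in replicates 1 to 4, and per kb of coding sequence 55.4%, 48.8%, 51.9% and 78.0%. Mcm3 was thus the leading subunit transcript in every library under both lengths. Mcm2 over Mcm3 was -3.73, -3.75 and -3.77 on the log2 scale per kb in replicates 1 to 3, and in replicate 4, where Mcm2 had 0 counts, the ratio could not be read.

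**Figure D2:**
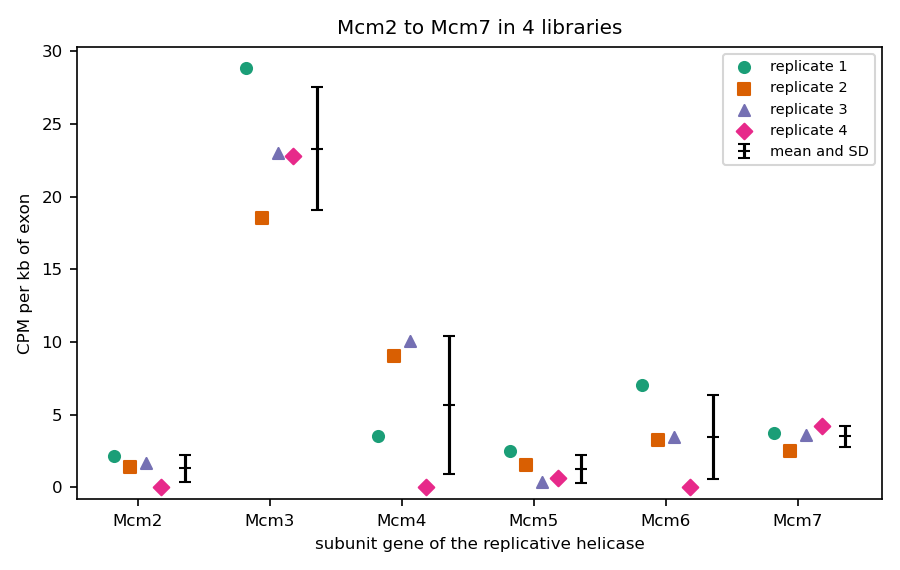
Level of the 6 helicase subunit genes in CPM per kb of exon, 1 point per library, with the mean and SD of 4 libraries beside them. Mcm3 sits at 18.6 to 28.9 in every library, and Mcm2, Mcm4 and Mcm6 drop to 0.0316 or less in replicate 4.

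Pcna, the sliding clamp of DNA polymerases, which also serves DNA repair, stood at 33.0, 54.4, 57.6 and 93.0 CPM in replicates 1 to 4. It exceeded Mcm7 in 4 of 4 libraries, by 2.74 ± 0.62 on the log2 scale per kb (SD, n = 4). Among genes of nucleotide supply, Rrm1, the large subunit of ribonucleotide reductase, was even at 52.4, 38.2, 34.4 and 57.3 CPM. Its S phase partner Rrm2 gave 0, 14, 73 and 367 counts. Thymidylate synthase, Tyms, gave 566, 219, 453 and 2 counts, and thymidine kinase, Tk1, gave 348, 109, 96 and 0 counts. Replicate 4 therefore held the most Rrm2 and the least Tyms and Tk1 of the 4 libraries.

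Mitotic genes were scarce, and different ones were present in different libraries. Of the 18, Cenpa and Cenpf had over 3 counts in every library, and Cenpa alone reached 1 CPM in every library. Cyclin B1 and B2, the partners of CDK1, gave 4, 37, 0 and 0 counts (Ccnb1) and 0, 75, 0 and 1 counts (Ccnb2) in replicates 1 to 4. Cdk1 itself gave 3, 111, 79 and 1 counts, and Ccna2, cyclin A2, gave 33, 44, 1 and 2. Replicate 2 was thus the library in which all 4 genes of the CDK1 group exceeded 3 counts.

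The mitotic kinases followed the same patchwork. Aurka, which acts at the centrosome, gave 26, 17, 38 and 1 counts in replicates 1 to 4, and Aurkb, of the chromosomal passenger complex, gave 0, 14, 126 and 0. Plk1, polo-like kinase 1, gave 0, 55, 108 and 0 counts. The spindle checkpoint genes were each seen in 1 library, with 0, 0, 7 and 0 counts for Bub1 and 0, 49, 0 and 0 for Bub1b. Birc5, which encodes the passenger protein survivin, gave 0, 31, 48 and 654 counts, so replicate 4, which lacked its partner Aurkb, held most of it. By counting error alone, with 3 counts as the floor of replicate 1, the Birc5 level in replicate 4 was at least 221-fold higher than there. Reads of an amplified library need not be separate molecules, so this lower limit need not hold.

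Among centromere and spindle genes, Cenpa, the histone variant of centromeres, gave 512, 308, 95 and 617 counts and the kinetochore gene Cenpf gave 82, 20, 137 and 29. The kinetochore motor gene Cenpe gave 0, 23, 79 and 0 counts. The spindle motors gave 0, 76, 30 and 1 counts (Kif11) and 15, 0, 10 and 0 counts (Kif20a), and the spindle assembly factor Tpx2 gave 71, 17, 4 and 1. Kif11 and Cenpe were seen in replicates 2 and 3, Tpx2 mostly in replicate 1. The anaphase genes Cdc20, an activator of the anaphase-promoting complex, and Ube2c, its ubiquitin-conjugating enzyme, gave 200, 36, 0 and 0 counts (Cdc20) and 154, 11, 93 and 0 counts (Ube2c). Of their exon bases, 29.3% of Kif20a overlap Cdc23 and 22.8% of Ube2c overlap Tnnc2, both on the opposite strand.

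Summed over the 18 mitotic genes, the level was 53.4, 40.9, 36.7 and 64.2 CPM in replicates 1 to 4. Its make-up differed between libraries. Cenpa made up 46.5% of the mitotic counts in replicate 1 (95% Clopper-Pearson interval 43.6 to 49.5) and 33.3% in replicate 2 (30.3 to 36.5). In replicate 3 Cenpf had the most, with 137 of 855 counts (interval 13.6% to 18.7%). Aurkb followed with 126 counts (12.4% to 17.3%), so these intervals overlap. The shares are of counts, without correction for length. Per kb of exon in replicate 3, Plk1 stood at 2.11 CPM and Cenpf at 0.381 CPM. In replicate 1, Cdc20 stood at 5.20 and Cenpa at 4.24 CPM per kb. In replicate 4 Birc5 took 654 of 1307 counts (interval 47.3% to 52.8%), and Cenpa took 617 of them. Without Cenpa and Birc5, the other 16 genes summed to 28.5, 25.9, 30.6 and 1.77 CPM, so replicate 4 held next to none of them. The intervals hold counting error alone, since reads of an amplified library carry no molecular identifiers here and need not be separate molecules. In bulk samples, fewer dividing cells and less of a transcript per cell cannot be told apart. Missing genes were also not confined to the mitotic ones. Genes of all kinds with a count numbered 14850, 18978, 18431 and 13944 in replicates 1 to 4. How far this wider lack, which may be technical, bears on the mitotic counts was not tested.

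**Figure D3:**
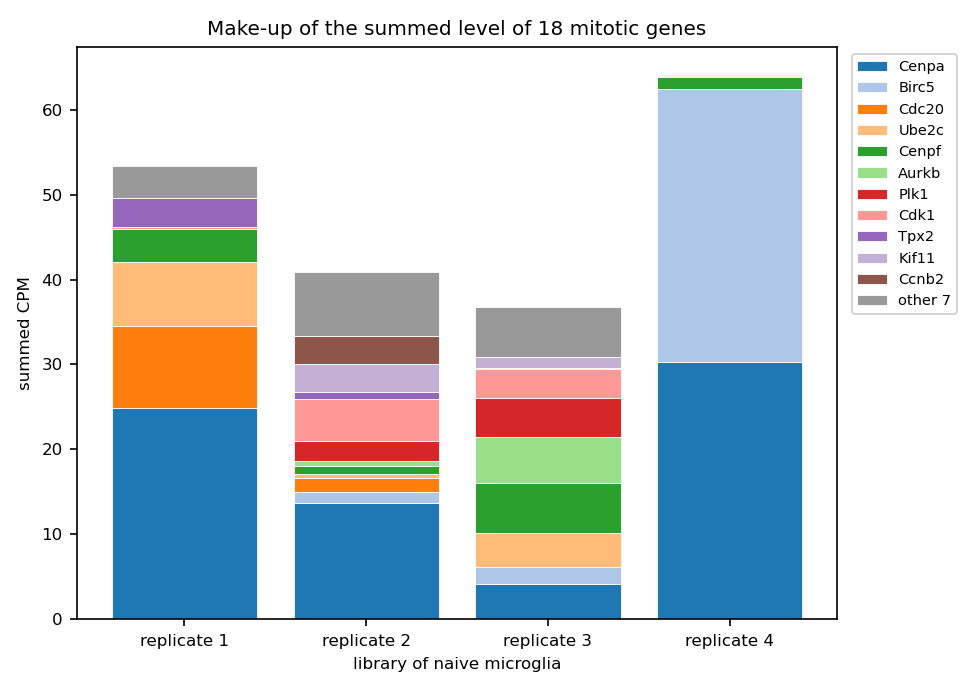
Summed CPM of the 18 mitotic genes in each library, stacked by gene, with the other 7 genes drawn as 1 grey block. The bars reach 36.7 to 64.2 CPM, and in replicate 4 Birc5 and Cenpa make up nearly the whole bar.

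Of the remaining genes, Stmn1, a microtubule regulator named stathmin, was the most even at 57.3, 52.9, 62.8 and 64.9 CPM in replicates 1 to 4. The chromatin protein gene Hmgb2, which is also expressed outside division, stood at 47.2, 114, 109 and 62.0 CPM, higher in the pair of libraries with high immediate early genes. Whether that pair's other differences bear on it was not tested. The proliferation antigen gene Mki67 gave 3, 44, 259 and 1 counts, and Top2a, the topoisomerase of replicating and mitotic chromosomes, gave 419, 146, 201 and 1. In replicate 1, therefore, Top2a was plain while Mki67 was at 3 counts, and in replicate 4 both were near 0.

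Spread between libraries was tested gene by gene with an edgeR quasi-likelihood fit, setting each gene's dispersion against the trend at its level. The fit tested 9075 genes with enough counts in every library, including 15 of the 42. It called 0 of the 15 at an adjusted p of 0.05, and 0% of all genes. At an unadjusted p under 0.05 it held 0 of the 15, beside 4.35% (395) of all genes tested. Without the low-count filter, 41 of the 42 had a value, and Mcm4 alone had an unadjusted p under 0.05, beside 467 of 21681 genes of all kinds. DESeq2's dispersion outliers also numbered 0 among the 15 and among all genes.

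Among the 15 genes tested, the smallest dispersions relative to the trend were those of Stmn1, at -4.17 on the log2 scale, Mcm7 at -3.05, Rrm1 at -2.14 and Mcm3 at -1.61. The largest were those of Cenpf at 1.86 and Ccnd1 at 1.57, each with an adjusted p of 0.944 (edgeR). The median of the 15 was 0.01, beside -0.09 for all genes tested. The filter asks for counts in every library, so genes near 0 in some libraries were left out of these values. Genes that passed were not all even, since Mcm5, Cenpf and Cenpa differed 6.69-fold, 6.64-fold and 7.43-fold between their highest and lowest library in CPM. On simulated counts for the 9075 genes, the fit recovered 65 of 100 genes changed 16-fold in 2 of 4 libraries. It recovered 5 of 100 changed 4-fold, so smaller differences were mostly beyond it. Whether the same shares would be recovered in the libraries was not tested. The immediate early genes of highest mean level, Dusp1 and Jun, differed 18.7-fold and 7.11-fold between their highest and lowest library in CPM. Neither was called, each with an adjusted p of 0.944 (edgeR). A result of 0 called genes therefore does not show that differences of this size were absent.

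Low counts were set beside those of all genes at the same mean level. Among cell cycle genes with a mean of 10 to 30 CPM, 3 of 7 (42.9%) had 3 counts or fewer in some library, against 16.1% of 3191 genes of all kinds. At 2 to 10 CPM it was 9 of 12 (75.0%), against 58.0% of 3478 genes, and at 0.5 to 2 CPM it was 10 of 10, against 76.6% of 3041. At 30 to 100 CPM it was 0 of 8, against 0.516% of 3292 genes. Below 10 CPM, in both sets, replicate 4 lacked the most genes and replicate 2 the fewest. The cell cycle genes are few per level and were chosen with results known, so these shares are a description.

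**Figure D4:**
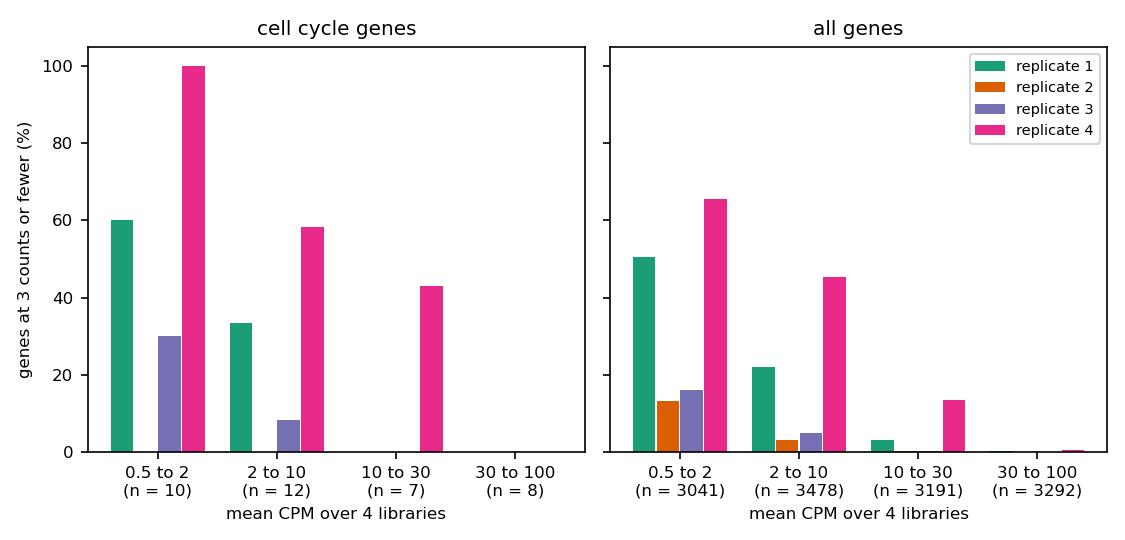
Percentage of genes at 3 counts or fewer in each library, by mean level, for the cell cycle genes (left) and for all genes (right). Below 10 CPM, replicates 4 and 1 lack the most genes in both panels, for example 58.3% and 33.3% of cell cycle genes at 2 to 10 CPM, against 45.3% and 22.1% of all genes.

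Of 25 pairs of related genes compared within libraries, 7 had over 3 counts of both genes in every library, and all 7 kept 1 order in 4 of 4 libraries. In the other pairs a gene was at 3 counts or fewer in some library, where the order can rest on exon length and the 0.5 added to each count, so it was not read. Counting these too, 14 of the 25 pairs were of 1 order. By exact permutation of signs over libraries, two-sided, each of the 14 had the smallest p that 4 libraries allow, 2 of 16 sign patterns, and an adjusted p of 0.223 over the 25 pairs.

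Other cell cycle genes outside the 42 were read from lists by role. Of 7 CDK inhibitors, which hold cells in G1, 5 were at 1 CPM or more in every library. Cdkn1a, which encodes p21 and responds to stress, stood at 43.9, 202, 241 and 34.0 CPM in replicates 1 to 4, moving with the immediate early sum given above. Its edgeR p for spread was 0.0122 and the adjusted p 0.944. Cdkn1b, which encodes p27, was even at 29.6, 25.6, 29.5 and 28 CPM. Per kb, Cdkn1b over Cdkn1a was -0.93, -3.34, -3.38 and -0.64 on the log2 scale. Whether the immediate early response bears on Cdkn1a was not tested. Cdkn1c stood at 27.1 ± 15.96 CPM and Cdkn2d at 20.1 ± 13.9 CPM (SD, n = 4).

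In the pocket protein, E2F and DREAM list, 8 of 18 genes were at 1 CPM or more in every library, led by the histone chaperone Rbbp4 at 205 ± 63.0 CPM (SD, n = 4). The DREAM complex represses cell cycle genes in resting cells. Of its genes, Rbl2, Lin52 at 37.7 ± 11.5 CPM and Lin37 at 24.9 ± 6.00 CPM were among those at that level. Other genes of the list, named after their values were seen, fell away in replicate 4. In replicates 1 to 4, E2f4 gave 653, 523, 587 and 1 counts and Rbl1 gave 1181, 620, 300 and 2. Tfdp1 gave 240, 508, 559 and 13 counts. Of 17 origin firing genes 9 passed that level, with Orc4, a subunit of the origin recognition complex, at 62.7 ± 32.3 CPM and Orc3 at 36.9 ± 13.5 CPM. Gins4 and Orc5 followed at 34.7 ± 24.7 and 31.2 ± 23.5 CPM, while Orc1 and Mcm10 had 0 counts in all libraries.

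Among 14 DNA synthesis genes, 9 passed 1 CPM in every library. The clamp loader gene Rfc2 stood at 70.4 ± 7.33 CPM and Rpa1, of the single-strand binding complex, at 59.4 ± 6.24 CPM (SD, n = 4), both among the most even. Rfc3 and Rfc1 stood at 30.3 ± 24.6 and 30.2 ± 9.53 CPM. Of 11 checkpoint kinase and CDC25 genes 4 passed, led by Ccnh, a cyclin of the CDK-activating kinase, at 50.7 ± 26.3 CPM and the S phase kinase gene Cdk2 at 46.2 ± 14.0 CPM. Cdk7, the partner of Ccnh, stood at 34.4 ± 15.7 CPM and Chek2, a checkpoint kinase gene, at 16.3 ± 8.80 CPM. Cdc25c and Ttk had 0 counts throughout.

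The anaphase control list differed from these, since all 14 genes passed 1 CPM in every library. Its highest were the anaphase-promoting complex subunits Anapc5, Anapc2, Cdc16 and Anapc11, at 142 ± 36.1, 119 ± 29.8, 90.1 ± 30.2 and 80.9 ± 13.7 CPM (SD, n = 4). Transcripts of these subunits were thus measured in every library, while Cdc20, an activator of the complex, was at 0 counts in replicates 3 and 4. Of these 6 lists, in the order given, edgeR tested 5, 9, 9, 9, 4 and 14 genes. It called 0 of them for spread between libraries at an adjusted p of 0.05, beside 0% of all genes tested. Only 1, Cdkn1a, had an unadjusted p under 0.05, beside 4.35% of all genes tested.

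Markers of other cell types were read beside the mitotic genes. Neutrophils, whose precursors divide, carry CD11b, and the sort also set a limit on CD45. How far this limit removed neutrophils was not tested. In the neutrophil precursor list, 6 of 10 genes reached 1 CPM in all libraries. It summed to 846, 176, 166 and 1022 CPM in replicates 1 to 4, led by Ngp at 262 ± 227 and Camp at 115 ± 117 CPM (SD, n = 4). The mature neutrophil list summed to 804, 176, 162 and 1578 CPM, led by S100a8 at 403 ± 429 and S100a9 at 158 ± 152 CPM. The precursor list was not of 1 pattern, and its other genes were named after their values were seen. Lowest in replicate 4 were Elane with 303, 207, 196 and 28 counts, Ctsg with 75, 30, 26 and 1, and Fcnb with 244, 18, 2 and 0. Prtn3, with 17, 32, 31 and 40 counts, was highest there, as were Camp, Ngp and Chil3. Mpo, with 705, 481, 358 and 627 counts, and Ltf were lowest in replicate 3, and Ms4a3 gave 2, 8, 0 and 0. Both neutrophil sums were highest in replicates 1 and 4, where Cenpa was also highest. So was the sum of the 12 microglial markers, at 67310, 40010, 37740 and 66050 CPM in replicates 1 to 4. Cdc20 peaked in replicate 1 but had 0 counts in replicate 4, and Birc5 peaked in replicate 4 but had 0 in replicate 1. The 16 mitotic genes other than Cenpa and Birc5 summed to 28.5, 25.9, 30.6 and 1.77 CPM in replicates 1 to 4. The part of neutrophils in the mitotic levels was not tested.

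Of 13 B lineage markers, 1 reached 1 CPM in every library and Vpreb2, Igll1, Rag1, Rag2, Dntt and Ms4a1 had 0 counts in all, with summed levels of 22.4 to 87.8 CPM, mostly Cd79b. No T and NK cell, oligodendrocyte precursor or neural progenitor marker reached 1 CPM in every library. The oligodendrocyte precursor list of 6 genes summed to 3.98, 27.6, 9.70 and 0.0491 CPM in replicates 1 to 4, and the neural progenitor list of 6 to 0.243, 6.38, 5.80 and 0.295 CPM. Both were highest in replicates 2 and 3, as were Cdk1, Plk1, Cenpe and Kif11. Cells of both kinds lack CD11b, on which the sort was made, and how far it removed them was not tested. The T and NK cell list summed to 0.0485, 4.65, 7.69 and 0.0982 CPM. The border macrophage list, with 6 of 7 genes at 1 CPM in every library, summed to 182, 619, 719 and 365 CPM, led by Mrc1 at 145 ± 68.6 and F13a1 at 129 ± 94.3 CPM (SD, n = 4). Both were also highest in replicates 2 and 3. The list's other genes, named after their values were seen, were not of 1 pattern. Lyve1, Pf4 and Cbr2 were highest in replicates 2 and 3. Cd163, at 16.2, 22.2, 24.3 and 32.6 CPM, and Ms4a7, at 50.6, 58.7, 71.4 and 83.5 CPM, were highest in replicate 4. The part of these 4 lists in those counts was not tested.

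The other lists were read in the same way. The monocyte list summed to 122, 66.0, 64.2 and 184 CPM in replicates 1 to 4, with 3 of 5 genes at 1 CPM in every library. Its genes were named after their values were seen. Chil3, at 72.7, 27.0, 21.9 and 124 CPM, is also in the neutrophil precursor list. Chil3, Ly6c2 and Plac8 were highest in replicate 4. Ccr2, in contrast, gave 595, 335, 425 and 1 counts, and Fn1 gave 0, 265, 175 and 0. The endothelial list summed to 67.8, 77.1, 75.6 and 75.3 CPM, with 2 of 6 genes at that level. The blood stem and progenitor list summed to 450, 408, 398 and 432 CPM, nearly all of it Cd34, and its other 6 genes did not reach 1 CPM in every library.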

How the data were processed

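The authors deposited whole-number counts of reads for each gene symbol, with a file for each library. The submitters' processing notes name the aligner STAR (version 2.7.10a), HTSeq (0.11.2), SAMtools (1.16.1) and build GRCm39. The annotation and strand setting were not given in the sources used here. Rows of reads given to no gene, 20.8% ± 1.28 (SD, n = 4) of listed reads, were left out. The libraries are replicates 1 to 4 of 1 group, and no 2 of them matched within sampling noise.

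CPM used the total assigned to genes. Exon and coding unions came from GENCODE M21 (GRCm38), matched by symbol for 89.1% of rows, and promoter windows from RefSeq GRCm38.p6. Spread was tested with edgeR 4.0.16 (R 4.3.3) after filterByExpr at 10 counts and TMM, as an upper-tail F test of an intercept-only quasi-likelihood dispersion against its trend, with Benjamini-Hochberg adjustment over all genes. The fit was tested on simulated data. DESeq2 1.42.0 was an alternative. Pair ratios added 0.5 to each count. Python 3.11.15 did the rest.

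Of the 42 genes, 16 share exon bases with another annotated gene, and 6 have a named pseudogene or related copy (Pcna, Stmn1, Tyms, Ccnb1, Ccnb2 and Ccnd3), so their counts are less certain. The members and lists were chosen with earlier results of these data known. All 42 genes could be named, and of the other cell cycle lists the 4 highest of each, both genes of each pair and any gene that passed the test. Of the marker lists the 2 highest and those at 0 could be named. The result of 1 marker list is not reported here. Overlap partners, such as Tspan31, were named after their values were seen.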

Additional observations from a re-analysis of the deposited data

Results flagged for a closer look

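Values in which 1 library stood far from the other 3 were looked for in 57 quantities, by a gap that exceeded Dixon's 95% critical share of the whole range for 4 samples. This set apart 10. Chance sets apart about 1 in 20 where values spread evenly around a mean, which does not hold for genes at or near 0: a gene at 0 in 3 libraries is set apart at any count in the fourth, so the number is not read against chance.

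Most of the 8 genes concerned were patchy mitotic ones. Replicate 2 stood out for Ccnb1 at 1.64 CPM (the other libraries 0 to 0.194), Ccnb2 at 3.32 CPM (0 to 0.0491) and Bub1b at 2.17 CPM (0 in each). Replicate 3 stood out for Aurkb at 5.41 CPM (0 to 0.620) and Bub1 at 0.301 CPM (0 in each), and replicate 1 for Cdc20 at 9.71 CPM (0 to 1.60).

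Replicate 4 stood out for Birc5 at 32.1 CPM (the other libraries 0 to 2.06), and for Cdk4 at 128 CPM (66.0 to 75.9). The same library gave the highest log2 ratio of Cdk4 over Cdk6, 5.07 (2.94 to 3.23), and of Rbl2 over Rb1, 2.39 (0.45 to 0.53). The 2 ratios are not independent of Cdk4, Cdk6 and Rb1 levels in that library.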

How the results depend on the processing

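The count of genes varying between libraries was 0, for all genes and for the 42, with DESeq2 size factors, no filter, the robust option, DESeq2 outliers and each library left out. Unadjusted, 380 to 483 genes had p under 0.05 in these edgeR fits, with 0 or 1 of the 42 among them. The median of the CDK1 group, 0.719 CPM, was 0.0801 without replicate 2, that of the mitotic kinases, 0.727 CPM, was 0.354 without replicate 3, and that of the anaphase pair, 2.91 CPM, was 1.012 without replicate 1. Genes at 1 CPM in every library numbered 14 to 21 with 1 library left out, and 28 in replicates 2 and 3 alone, an alternative chosen after seeing the data. Genes at 3 counts or fewer in some library numbered 16 to 26 with 1 library left out and 8 in replicates 2 and 3 alone, and 16 when counted at 0 counts. Summed CPM in place of the median gave, as means of 4 libraries, 333 (G1), 6.27 (G1 to S), 213 (helicase and clamp), 71.6 (nucleotide supply), 4.35 (CDK1 group), 13.7 (mitotic kinases), 24.9 (centromere and spindle) and 155 (chromatin and other), as a sum must exceed a median. Pairs of 1 order numbered 14 to 18 across alternatives, and the 7 pairs given above kept their direction in each. Coding length from protein tables was not run, and annotated coding length was used instead. No paired analysis was possible because there is only 1 group. A count of 0 limits each level to 0.129 to 0.147 CPM by counting error alone.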

Other observations

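Some genes outside the 42 showed the same patchwork and were chosen after their values were seen. The checkpoint kinase gene Chek1 gave 0, 1, 0 and 503 counts in replicates 1 to 4, and Dbf4, an activator of the origin-firing kinase, gave 9, 325, 193 and 1000. Rbl1, a pocket protein gene, gave 1181, 620, 300 and 2 counts, and the repressor E2f4 gave 653, 523, 587 and 1. Replicate 4 thus held the most Chek1 and Dbf4 and almost no Rbl1 or E2f4.

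Of the 41 genes with a count, 14 were highest in replicate 1 and 9 in each of replicates 2, 3 and 4. Among the 14694 genes of all kinds averaging at least 0.5 CPM, 3765, 3528, 2954 and 4447 were highest in replicates 1 to 4.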
